A study of Mus musculus with 6 samples.

Results

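The 33 genes described here drive or carry out mitosis and the G2/M transition, the entry of a cell from its second gap phase into division. They were taken by name from the 54446 genes in the table of normalized counts. The list holds cyclins, kinases, kinetochore and spindle proteins and their transcription factors. It was set by function, but with earlier results of these data known. RNA came from naive B cells of the spleen of *Tent5c* KO mice and their WT littermates, on a mixed C57BL/6J X CBA background and 12 to 15 weeks old, after 7 days in culture with LPS (20 µg/ml) together with IL-4 (20 ng/ml), which both genotypes received. There were 3 libraries of each genotype, and each of the 3 replicate numbers, which the labels also give as the batch, is a pair of 1 KO and 1 WT littermate. The KO was in the whole animal, so it was not limited to B cells or to the time in culture, and the libraries were made from bulk cultures, in which fewer dividing cells and less mitotic RNA per cell cannot be told apart. TENT5C is a cytoplasmic poly(A) polymerase, and since the study asked how its loss affects growth and differentiation of activated B cells, the question here is whether the transcripts of the division machinery differed between the genotypes.

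Genes of mitosis are silent in resting lymphocytes and are switched on together late in each cell cycle. In resting cells the DREAM complex, built on the MuvB core, holds them off, and in cycling cells the same core joins first B-MYB (gene *Mybl2*) and then FOXM1 to switch them on. The core reads a short element near the start of these genes, the cell cycle genes homology region (CHR), and the factor NF-Y binds CCAAT boxes upstream of it. B cells given LPS and IL-4 divide for several days, and as they become antibody-secreting plasma cells they leave the cycle and lose most of this RNA.

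The promoters are shown because the same pair of elements recurs in 17 mitosis genes spread over 11 chromosomes. In RefSeq windows on GRCm38.p6, which run from 250 bases before to 50 bases after a gene's start, 27 of the 33 mitosis genes had a window (*Ccna2*, *Tpx2*, *Incenp*, *Foxm1*, *Aurkb* and *Kif20a* had none). Of 7 genes in which a CCAAT box is followed within 60 bases by the CHR letters TTTGAA, both in the last 65 bases before the start, 6 are printed, each 5′ to 3′ on the strand of its gene, and *Ube2c* is the other. Capitals mark CCAAT and TTTGAA, or ATTGG and TTCAAA where the match lies on the opposite strand.
*Cdc20*, chr4:118437344-118437408, minus strand: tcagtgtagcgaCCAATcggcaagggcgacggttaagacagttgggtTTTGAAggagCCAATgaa
*Prc1*, chr7:80294411-80294475, plus strand: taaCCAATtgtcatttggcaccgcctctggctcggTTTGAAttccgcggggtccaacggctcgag
*Cdk1*, chr10:69352913-69352977, minus strand: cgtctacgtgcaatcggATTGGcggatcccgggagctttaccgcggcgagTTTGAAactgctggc
*Top2a*, chr11:99024190-99024254, minus strand: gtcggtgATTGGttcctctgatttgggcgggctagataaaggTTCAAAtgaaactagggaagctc
*Espl1*, chr15:102296228-102296292, plus strand: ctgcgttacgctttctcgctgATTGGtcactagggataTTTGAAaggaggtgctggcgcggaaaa
*Kif11*, chr19:37376317-37376381, plus strand: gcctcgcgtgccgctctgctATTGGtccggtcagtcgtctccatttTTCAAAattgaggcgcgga
The first base of the CCAAT box lay 35 bases before that of the CHR letters in *Cdc20* and *Top2a*, 33 in *Cdk1*, 32 in *Prc1*, 26 in *Kif11* and 17 in *Espl1*.

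On both strands of the whole windows, TTTGAA was found in 20 of the 27 mitosis genes (74.1%), against 20.2% of the 27025 genes with a window, 61.9% of 63 other G2/M genes and 17.5% of 40 S-phase genes. Counting only matches within 50 bases of the start, a limit chosen after the positions were seen, the shares were 66.7% of the mitosis genes, 5.72% of all genes, 52.4% of the other G2/M genes and 10% of the S-phase genes. CCAAT was present in 74.1% of the mitosis genes, 41.1% of all genes, 66.7% of the other G2/M genes and 57.5% of the S-phase genes. Both TTTGAA and CCAAT were present in 63.0%, 7.97%, 46.0% and 7.5% of these sets, in the same order. Of the other CHR spellings searched, TTCGAA was in 11.1% of the mitosis genes (1.8% of all genes), CTTGAA in 11.1% (14.8%) and TTTAAA in 33.3% (14.9%). TTCGAA and TTTAAA read the same on both strands, CHR matches of different spelling cannot overlap, and a CHR match can share at most 1 base with CCAAT. *Mybl2*, *Nuf2* and *Nusap1* had no match to any of them in their windows.

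**Figure D1:**
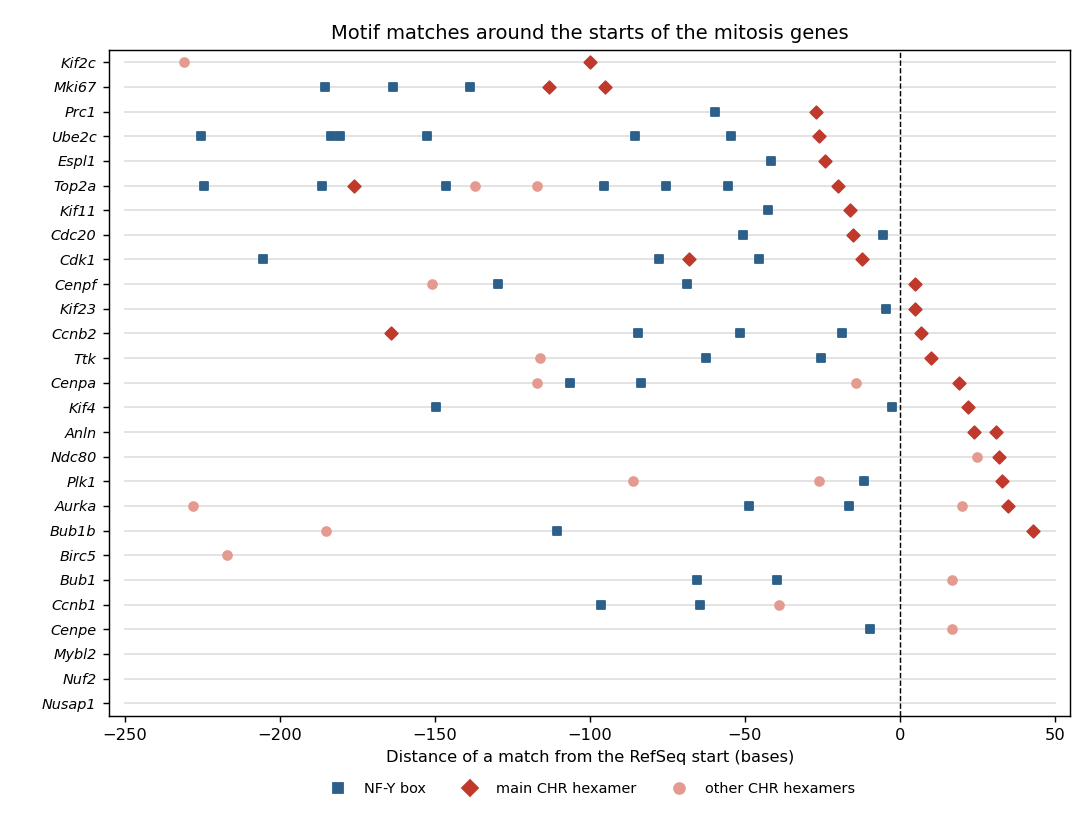
Matches in the promoter windows of 27 mitosis genes, plotted by the distance of the middle of the match from the RefSeq start in bases, on either strand. Blue squares are NF-Y boxes (CCAAT), dark red diamonds the main CHR letters (TTTGAA) and light red circles the other 3 CHR spellings, and the dark diamonds gather within 50 bases of the start in 18 genes.

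The libraries held 5393558 to 6793520 fragments on genes (median 6607728.5). *Tent5c* itself had 1993, 993 and 1170 normalized counts in the KO libraries of pairs 1, 2 and 3 and 1255, 767 and 1584 in the WT libraries. The transcript was therefore no check of the genotype labels, by which the groups are named. The B cell receptor subunit *Cd79a* had 1219, 1320 and 1398 normalized counts in the KO libraries of pairs 1, 2 and 3 and 1531, 1611 and 1405 in the WT libraries. Every KO library was below every WT library, which held for 3.44% of all genes tested. Its log2 fold change was −0.21 (95% interval −0.40 to −0.01, adjusted *p* = 0.970 in limma). By contrast, the 10 T cell genes together gave 33.4 to 55.7 in KO and 30.3 to 95.1 in WT libraries, and 5 of 7 erythroid genes were at 0 in all libraries. The 11 myeloid genes summed to 131, 20.0 and 91.7 normalized counts in KO of pairs 1, 2 and 3 and to 81.2, 64.8 and 90.3 in WT, most of it *Lyz2* (2.86 to 85.9) and *Adgre1* (14.3 to 37.8), while *S100a8*, *S100a9*, *Elane* and *Ly6g* were at 0.

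All 33 mitosis genes passed the filter on low values, a mean of at least 10 normalized counts, which 12322 genes passed. A normalized count here is a number of fragments divided by the size factor of its library. The lowest value of any mitosis gene in any library was 92.6 normalized counts (98 fragments, *Aurka* in WT of pair 1), the fewest fragments were 84 (*Aurka* in WT of pair 3) and the highest value 6952 (*Top2a* in KO of pair 2), so that none was near the limit of detection. Per kb of exon, mean levels ranged over 34.3-fold. *Top2a*, the topoisomerase that untangles sister chromatids, was highest, with 696 ± 65.6 normalized counts per kb in KO and 646 ± 55.9 in WT (SD, n = 3). The proliferation marker *Mki67*, which coats mitotic chromosomes, followed with 463 ± 31.7 in KO and 423 ± 45.4 in WT. Over the 6 libraries the ranges per kb of these genes, 598 to 771 and 370 to 493, did not overlap each other or those of the next genes. *Ccna2* (227 to 271) and *Cdc20* (229 to 266), next in mean level, overlapped almost completely. At the low end, *Anln*, which encodes the cytokinesis scaffold anillin, had 18.3 to 20.6 normalized counts per kb over the 6 libraries, below the range of *Foxm1* (21.3 to 35.4).

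**Figure D2:**
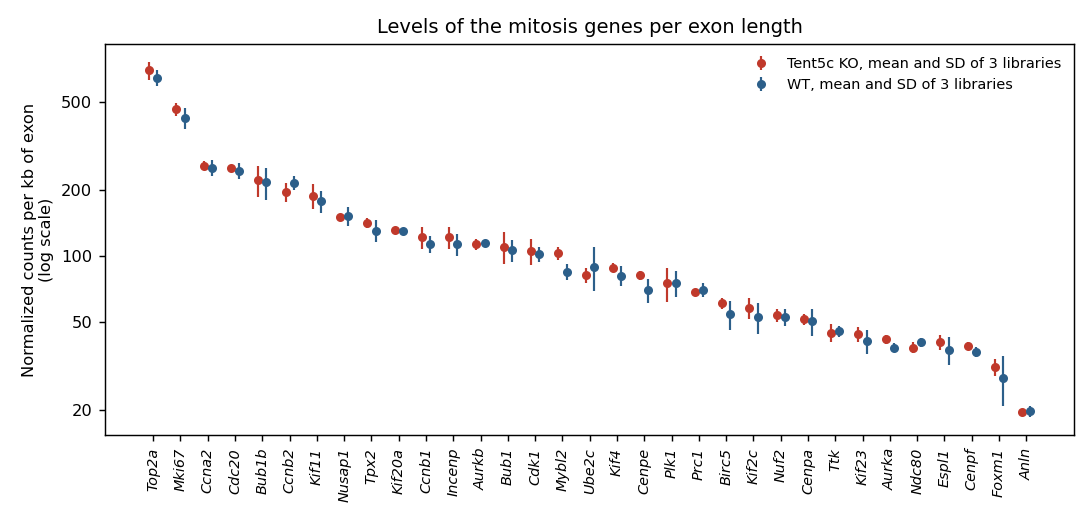
Normalized counts per kb of exon (log axis) of the 33 mitosis genes, in order of their mean, with points for the mean and bars for the SD of 3 libraries, KO in red and WT in blue. *Top2a* and *Mki67* stand above the others and *Anln* is lowest, in both genotypes.

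Between KO and WT, no mitosis gene differed past the threshold. In limma on log2(normalized count + 1), with the pair as a block and Benjamini-Hochberg adjustment over all genes, 0 of 33 mitosis genes had an adjusted *p*-value under 0.05, as did 0% of all 12322 genes tested, and the smallest adjusted *p*-value of a mitosis gene in limma was 0.926, for *Mybl2*. In edgeR 0 mitosis genes passed as well. DESeq2, whose calls made up 0.232% of the 9894 genes to which it gave an adjusted *p*-value, also called 0. At an unadjusted *p*-value under 0.05 in limma, 2 mitosis genes were higher in KO, *Mybl2* and *Cenpe*, where 1.67% of all genes were, and 0 were lower, where 3.03% of all genes were. The number higher was 2 in edgeR with the block, 1 in limma or edgeR without it and 0 in DESeq2. It was 1 without pair 1 and 4 without pair 3. The shares of all genes at this limit in these alternatives are not given here. Leaving out pair 1 gave 168 genes lower and 3 higher past the adjusted threshold, and leaving out pair 2 gave 1 lower, 0 of them mitosis genes in either case.

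The differences were small, and most of them were positive. The median log2 fold change of the mitosis genes was 0.05, beside 0.00 over all genes tested, and 24 of the 33 (72.7%) were above 0 and 9 below, where 50.2% of all genes were above 0. Scaled by the total fragments of each library in place of size factors, the median was 0.08 and 30 of the 33 (90.9%) were above 0, but this scaling also moved all genes, to a median of 0.03 with 61.0% above 0. Without pair 3 the median was 0.09. In size, 18 differences were under 0.1 on the log2 scale, 13 lay between 0.1 and 0.2, and 2 were above 0.2 (*Mybl2* and *Cenpe*). Each gene's own 95% interval for the log2 fold change lay within −0.42 to 0.49, so that for none of them, taken singly, did the interval reach a 1.41-fold difference in either direction.

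Within the littermate pairs 1, 2 and 3, the mitosis genes had median log2 ratios of KO to WT of 0.11, 0.06 and 0.06, and 25, 22 and 22 of the 33 genes were higher in KO, where the share of all genes ran from 46.8% to 50.4% by pair. In all 3 pairs, 14 mitosis genes (42.4%) were higher in KO, where 11.7% of all genes tested were. Only *Ccnb2* (3.03%) was lower in all 3 pairs (0 genes with total-fragment scaling), where 13.1% of all genes were. The other 18 had pairs of both signs. With 1 pair left out, 15 to 19 mitosis genes were higher and 3 to 5 lower in both of the remaining pairs. The shares of all genes with 1 pair left out are not given here, so these counts are not set against a background. The KO libraries were all above the WT libraries in 1 mitosis gene, *Mybl2* (3.39% of all genes), and all below in 0 (3.44% of all genes). These genes are switched on together and are not independent of each other, so the count of genes is not a count of replicates. With 3 pairs an exact two-sided paired permutation test of a single value cannot give a *p*-value below 0.25.

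**Figure D3:**
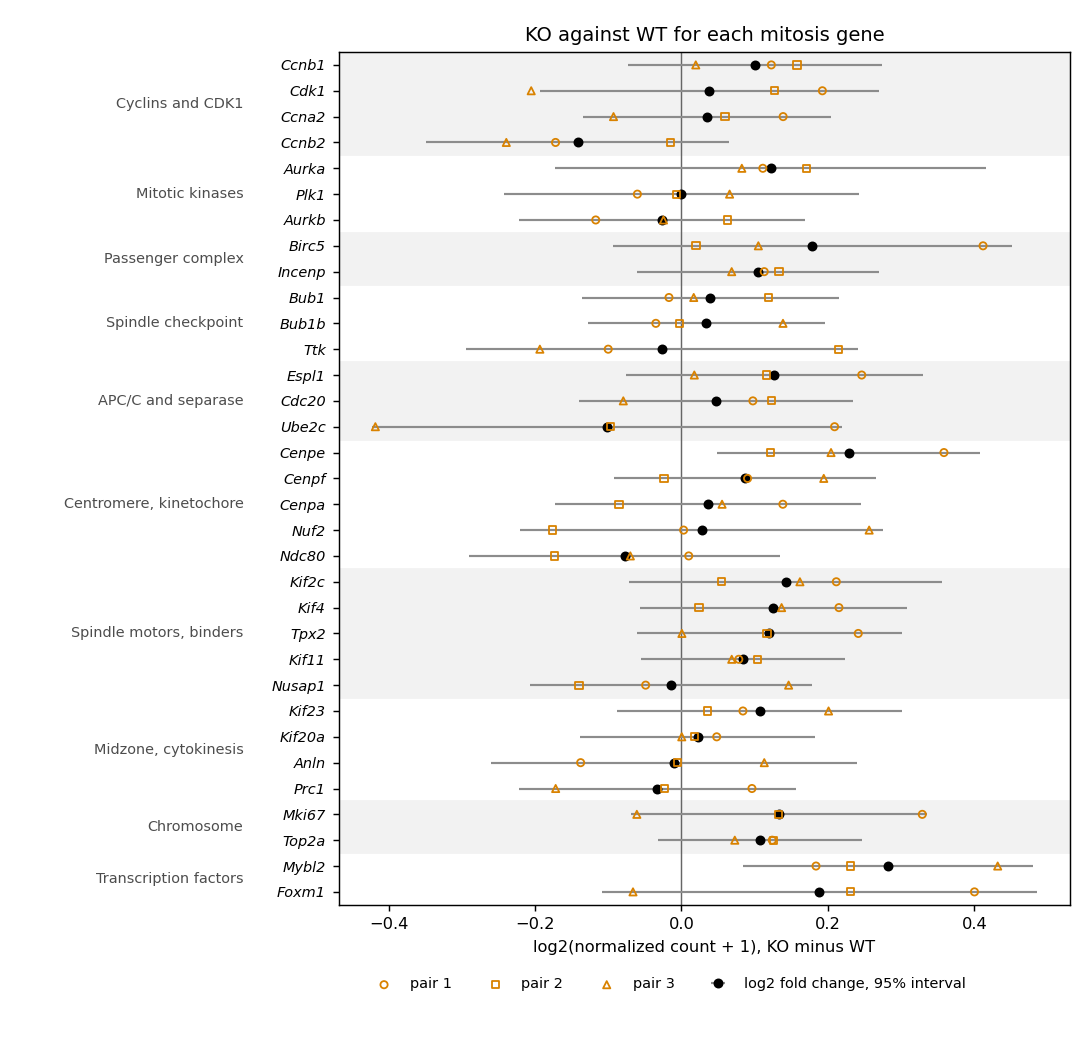
KO minus WT difference in log2(normalized count + 1) of each mitosis gene, grouped by role, with black points and grey bars for the limma log2 fold change and its 95% interval and open orange symbols for the 3 littermate pairs. The bars of all genes but *Mybl2* and *Cenpe* cross 0, and in 18 genes the pairs lie on both sides of 0.

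Among the pairs, pair 2 had the highest mean in 25 mitosis genes and pair 1 the lowest in 26, where pair 2 was highest in 36.7% and pair 1 lowest in 34.1% of all genes tested. By single library, 18 mitosis genes were highest in KO of pair 2 and 19 were lowest in WT of pair 1. Relative to each gene's mean, the median mitosis gene stood at 0.12 (log2) in KO and 0.06 in WT of pair 2, and at −0.03 in KO and −0.16 in WT of pair 1.

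Summed over the 33 genes, there were 24113, 27184 and 24419 normalized counts in the KO libraries of pairs 1, 2 and 3 and 21773, 25620 and 23953 in the WT libraries. The KO library was the higher in each pair, but the groups overlapped, with means of 25238 ± 1692 in KO and 23782 ± 1929 in WT (SD, n = 3). As a share of all fragments on genes, the sum was 0.384%, 0.434% and 0.396% in KO and 0.346%, 0.403% and 0.369% in WT. *Top2a* and *Mki67* made up the largest parts of these sums.

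**Figure D4:**
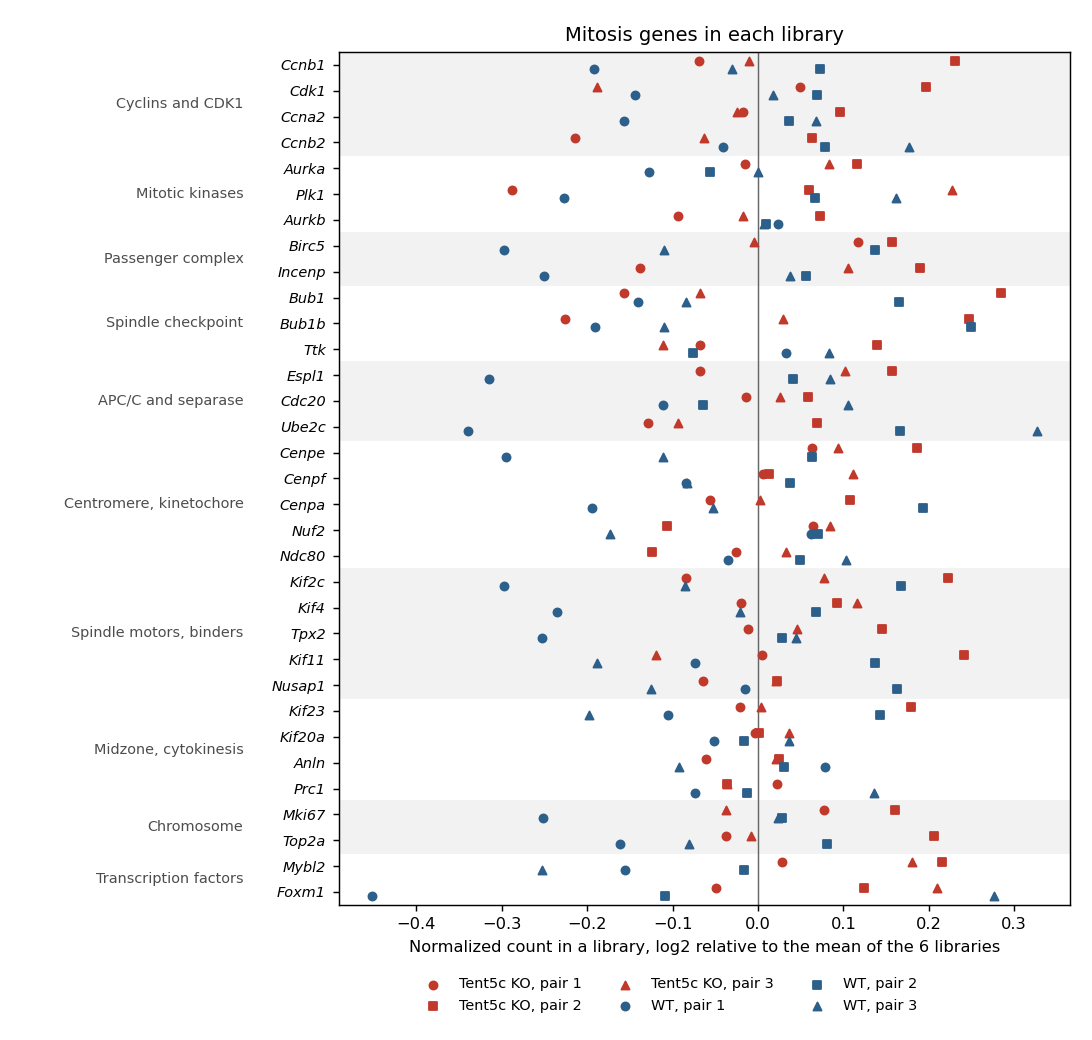
Level of each mitosis gene in each library, as log2 of the normalized count relative to the gene's mean over the 6 libraries, with KO in red, WT in blue and a symbol for each pair. Squares (pair 2) lie mostly to the right and circles (pair 1) mostly to the left in both colours, and red and blue symbols are mixed in every gene but *Mybl2*.

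The transcription factors of the programme had the largest median difference of any role, 0.24 on the log2 scale. *Mybl2* (ENSMUSG00000017861, chr2:163054687-163084688 on GRCm38, plus strand), which encodes B-MYB, had 439, 499 and 488 normalized counts in the KO libraries of pairs 1, 2 and 3 and 386, 426 and 361 in the WT libraries. Every KO library was above every WT library, though KO of pair 1 was only a little above WT of pair 2. Its log2 fold change was 0.28 (95% interval 0.08 to 0.48, unadjusted *p* = 0.013, adjusted *p* = 0.926 in limma), and the log2 ratio was 0.18, 0.23 and 0.43 in the pairs. *Foxm1*, the forkhead factor that acts with it, had 162, 183 and 194 normalized counts in KO and 123, 156 and 203 in WT. Here the highest and the lowest library were both WT, and the log2 fold change of 0.19 had a 95% interval from −0.11 to 0.49. The exons of *Foxm1* share 144 of 5754 bases with other genes on the same strand.

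Cyclins and their kinase start mitosis, and their 4 genes had no common direction. *Ccnb1* encodes the cyclin B1 that carries CDK1 into the nucleus, and it had 470.0, 579 and 489 normalized counts in KO and 432, 519 and 483 in WT, higher in KO in each pair (log2 fold change 0.10, 95% interval −0.07 to 0.27). *Ccnb2*, the second B-type cyclin (ENSMUSG00000032218, chr9:70407692-70421547, minus strand), was lower in KO in each pair except with total-fragment scaling, with 269, 326 and 299 in KO and 303, 329 and 353 in WT. Its log2 fold change was −0.14 (95% interval −0.35 to 0.07), the lowest of the 33 genes, with log2 ratios of −0.17, −0.01 and −0.24, and KO and WT libraries overlapped. *Cdk1*, the kinase that both cyclins activate, had 526, 582 and 446 normalized counts in KO and 459.9, 533 and 514 in WT, with KO higher in pairs 1 and 2 and lower in pair 3 (log2 fold change 0.04). *Ccna2*, whose cyclin A2 acts from S phase to early mitosis, ranged from 1016 to 1105 in KO and from 927 to 1084 in WT, and its log2 fold change was also 0.04.

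Of the mitotic kinases, *Aurka*, *Plk1* and *Aurkb*, only the first had a difference of the same sign in each pair. *Aurka*, the kinase of centrosomes and spindle poles, had 100.0, 109.6 and 107 normalized counts in KO and 92.6, 97.2 and 101 in WT, and its log2 fold change of 0.12 had a wide 95% interval, from −0.17 to 0.42. *Plk1*, which acts from mitotic entry to cytokinesis, had 134, 171 and 192 in KO and 139.8, 171 and 183 in WT, a log2 fold change of −0.00. Between pairs, in contrast, its mean differed by 0.45 on the log2 scale. *Aurkb*, the kinase of the chromosomal passenger complex, lay between 314 and 353 in all 6 libraries (log2 fold change −0.03). The targeting subunits of that complex were higher in KO in each pair. *Birc5*, which encodes survivin, had 211, 217 and 194 normalized counts in KO and 159, 214 and 181 in WT (log2 fold change 0.18, 95% interval −0.09 to 0.45), and pair 1 had by far the largest ratio of the pairs. *Incenp*, the scaffold of the complex, had 459, 576 and 543 in KO and 424, 525 and 518 in WT (log2 fold change 0.10).

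The spindle checkpoint holds cells in metaphase until every kinetochore is attached, and 0 of its 3 genes had the same sign in each pair. *Bub1* ranged from 419 to 569 normalized counts in KO and from 424 to 524 in WT, and *Bub1b*, which encodes BUBR1, from 789.9 to 1096 and from 809 to 1098. In both genes the libraries of pair 2 were the highest, and the log2 fold changes were 0.04 and 0.03. *Ttk*, the MPS1 kinase at the head of the checkpoint, had a log2 fold change of −0.03, with KO higher in pair 2 and lower in the others.

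When the checkpoint is satisfied, the anaphase-promoting complex (APC/C) marks cyclin B and securin for destruction and separase cuts the rings that hold sister chromatids. *Ube2c*, the E2 enzyme of the APC/C (ENSMUSG00000001403, chr2:164769898-164778822, plus strand), had 201, 231 and 206 normalized counts in KO and 174, 247 and 276 in WT. The WT libraries were the lowest and the highest of the 6, and the 95% interval of its log2 fold change of −0.10, from −0.42 to 0.22, was the widest of the 33 genes. *Cdc20*, the activator of the APC/C, had 457, 480.4 and 469 in KO and 427, 441 and 496 in WT (log2 fold change 0.05, with pair 3 below 0). *Espl1*, which encodes separase, was higher in KO in each pair, with 323, 377 and 363 in KO and 272, 348 and 359 in WT (log2 fold change 0.13). For the 14 subunits of the APC/C itself, the median log2 fold change was −0.01. In all 3 pairs, 2 (14.3%) were higher and 1 (7.14%) lower in KO, where 11.7% and 13.1% of all genes tested were.

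Among the centromere and kinetochore genes, *Cenpe* had the largest log2 fold change, though its 95% interval overlapped those of the other 4. *Cenpe* (ENSMUSG00000045328, chr3:135212537-135273611, plus strand) encodes the kinesin that brings chromosomes to the metaphase plate, and it had 679.5, 739.7 and 694 normalized counts in KO and 529.8, 679.6 and 602 in WT. The lowest KO library and the highest WT library were level to within 1 normalized count, and KO was higher in each pair, with log2 ratios of 0.36, 0.12 and 0.20. Its log2 fold change was 0.23 (95% interval 0.05 to 0.41, unadjusted *p* = 0.020, adjusted *p* = 0.970 in limma). *Cenpf*, a farnesylated protein of the outer kinetochore, had a log2 fold change of 0.09, and *Cenpa*, the histone H3 variant that marks centromeres, 0.04. *Ndc80* and *Nuf2*, whose proteins pair in the complex that grips microtubules, had log2 fold changes of −0.08 and 0.03, and KO was lower than WT in pair 2 for *Cenpa*, *Cenpf*, *Ndc80* and *Nuf2*.

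Of the 5 genes for spindle motors and microtubule binders, 4 were higher in KO in all 3 pairs, where 11.7% of all genes tested were. The median log2 fold change of the 5 genes was 0.12. *Kif2c*, the kinesin that takes microtubules apart at centromeres, had 227, 280.2 and 253 normalized counts in KO and 195, 269.7 and 226 in WT (log2 fold change 0.14, 95% interval −0.07 to 0.36). *Kif11*, the kinesin that pushes spindle poles apart, had 1359, 1601 and 1248 in KO and 1287, 1490 and 1190 in WT (log2 fold change 0.08). In both genes the order of the pairs was the same in KO and in WT, and the groups overlapped. *Kif4*, a chromokinesin, had a log2 fold change of 0.13 (95% interval −0.06 to 0.31) and *Tpx2*, the activator of Aurora A on the spindle, 0.12 (−0.06 to 0.30). *Nusap1*, which bundles microtubules near chromosomes, was the exception, with a log2 fold change of −0.01 and KO higher in pair 3 only.

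The 4 genes of the central spindle and of cytokinesis were close to level, with a median log2 fold change of 0.01. *Kif23*, the motor of the centralspindlin complex, had a log2 fold change of 0.11 and was higher in KO in each pair, with 329, 378 and 335 normalized counts in KO and 311, 369 and 291 in WT. *Kif20a*, the motor that carries the passenger complex to the midzone, was the steadiest of the 4, at 545 to 579 in all 6 libraries and with a log2 fold change of 0.02. *Prc1*, which bundles the midzone microtubules, and *Anln* had log2 fold changes of −0.03 and −0.01.

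The genes with the most fragments were *Top2a* and *Mki67*. *Top2a* (ENSMUSG00000020914, chr11:98992943-99024189, minus strand) had 5871, 6952 and 5994 normalized counts in KO and 5388, 6374 and 5699 in WT, higher in KO in each pair, with a log2 fold change of 0.11 (95% interval −0.03 to 0.25). Of its 9013 exon bases, 122 are shared with another gene on the same strand. *Mki67* (ENSMUSG00000031004, chr7:135689784-135716361, minus strand) had 4682, 4960 and 4325 in KO and 3728, 4524 and 4511 in WT, with log2 ratios of 0.33, 0.13 and −0.06 in the pairs and a log2 fold change of 0.13 (95% interval −0.07 to 0.34). The WT library of pair 1 was the lowest of the 6 in both genes, and the groups overlapped in both. The processed copies *Ccnb1-ps*, *Ccnb2-ps* and *Kif4-ps* had at most 2.86 normalized counts in a library, where *Ccnb1*, *Ccnb2* and *Kif4* had at least 269.

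Promoter letters and differences between the genotypes can be set side by side. The 20 mitosis genes with TTTGAA in their window had a median log2 fold change of 0.04 (−0.14 to 0.14), and the 7 with a window but no TTTGAA had 0.10 (−0.01 to 0.28). *Mybl2* and *Cenpe*, the genes with the largest differences, are both among those 7. Lacking TTTGAA is not the same as lacking every CHR spelling searched. Of the 7, *Cenpe*, *Ccnb1* and *Birc5* had TTTAAA and *Bub1* had TTCGAA. A link between promoter letters and differences was not tested.

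Other genes of the cell cycle, from lists set by function, had medians of the same small size. Single genes went further than any mitosis gene, up to 0.42 (*Pold1*) and down to −0.39 (*Cdkn2b*). In limma, 0 of these genes passed the adjusted threshold. Of 76 other G2/M genes, 58 had a log2 fold change above 0 (median 0.08). In all 3 pairs, 17 (22.4%) were higher and 2 (2.63%) lower in KO, where 11.7% and 13.1% of all genes tested were. At an unadjusted *p*-value under 0.05 in limma, 1 was higher in KO, where 1.67% of all genes were. That gene was *Ect2*, the exchange factor that starts the cleavage furrow, with 450.2, 412 and 414 normalized counts in KO and 365, 348 and 332 in WT (log2 fold change 0.29, adjusted *p* = 0.849 in limma). *Kif18a*, *Ncapg2* and *Kif20b* followed it, at 0.17, 0.14 and 0.16. Of 50 S-phase genes, 41 were above 0 (median 0.08), with 20 (40.0%) higher and 1 (2.0%) lower in all 3 pairs. Among them were the DNA polymerase subunit *Pold1* at 0.42, the primase subunit *Prim2* at 0.24, the histone chaperone gene *Chaf1a* at 0.23 and the DNA ligase gene *Lig1* at 0.19. In *Pold1* pair 3 set the value, with log2 ratios of 0.15, 0.16 and 0.95.

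**Figure D5:**
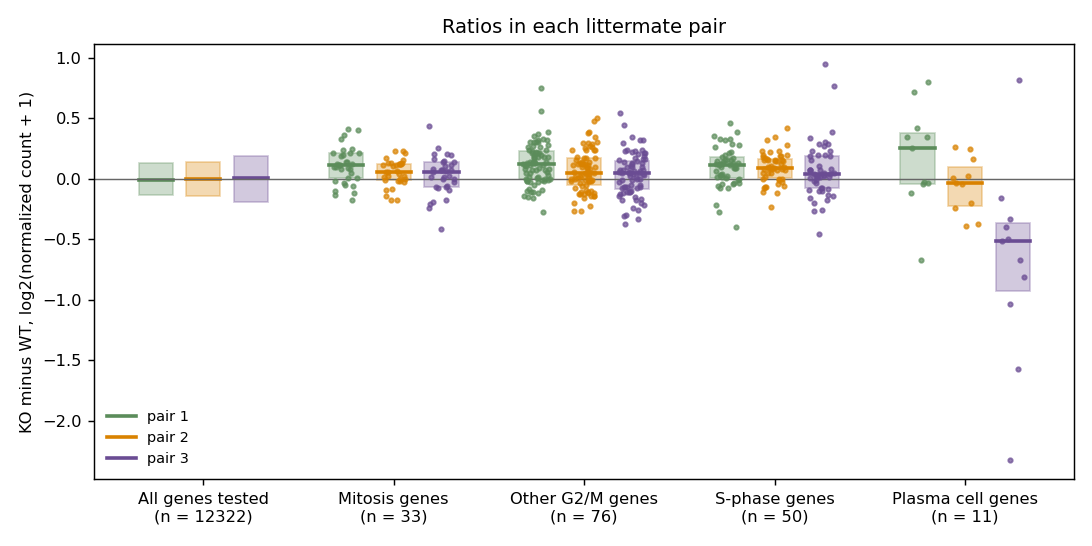
Log2 ratio of KO to WT in each littermate pair, with 1 point per gene, a line at the median and a box from the lower to the upper quartile, for all genes tested (box only), the 33 mitosis genes, 76 other G2/M genes, 50 S-phase genes and 11 plasma cell genes. The medians of the cell cycle lists lie at or below 0.12 in each pair, and those of the plasma cell genes are 0.25, −0.04 and −0.52 in pairs 1, 2 and 3.

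The partners of the CHR and CCAAT elements, 15 genes for DREAM, MuvB and NF-Y subunits, had a median log2 fold change of 0.07. In all 3 pairs, 4 (26.7%) were higher and 0 lower in KO, where 11.7% and 13.1% of all genes tested were. The 4 higher were *Tfdp2*, which encodes an E2F partner (0.26), *Mybl1*, a relative of *Mybl2* (0.22), the MuvB subunit gene *Lin9* (0.17) and *Rbl1*, which encodes p107 (0.10). Upstream of mitosis, 11 of 12 genes of G1 and of entry into S phase were tested, with a median of 0.03. *E2f1*, the activator of S-phase genes, had 124, 131 and 126 normalized counts in KO and 87.8, 120.2 and 91.5 in WT (log2 fold change 0.36, unadjusted *p* = 0.035, adjusted *p* = 0.970 in limma), and every KO library was above every WT library. The D-type cyclins *Ccnd2* and *Ccnd3* were at 0.11 and 0.18, and *Myc* at 0.01, with *Ccnd2* lower in KO in pair 2. Of the 11 genes, 8 were above 0 and 3 below, namely *Cdk4* at −0.11, *E2f2* at −0.04 and *Rb1* at −0.03. Of 7 inhibitors of cyclin-dependent kinases, 6 were tested, with a median of 0.02, 4 above 0 and 2 below. In all 3 pairs, 1 was higher and 1 lower in KO. The lower one was *Cdkn2b*, which encodes p15, with 41.5, 27.6 and 32.7 normalized counts in KO and 45.3, 35.5 and 53.0 in WT (log2 fold change −0.39, adjusted *p* = 0.970 in limma). The higher one was *Cdkn2a*, at 0.16, and in both genes the groups overlapped. *Cdkn2d* was at 0.28, with pair 2 below 0. *Cdkn1a* and *Cdkn1b*, for p21 and p27, were at −0.04 and 0.04. Among genes of exit from the cycle, *Btg2* was at −0.13 and *E2f8* at 0.24, and 0 of 7 had an unadjusted *p*-value under 0.05.

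In plasma cell genes, the ratio of KO to WT differed between the pairs more than in the mitosis genes. Their sum over 12 genes was 23364, 13835 and 17060 normalized counts in the KO libraries of pairs 1, 2 and 3 and 18913, 14134 and 28195 in the WT libraries. Pair 2, in which the mitosis genes summed highest in both genotypes, had the lowest plasma cell sum in both. KO of pair 1 and WT of pair 3 had the highest. The median log2 fold change of the 11 plasma cell genes tested was −0.04, with 4 above 0 (up to 0.31) and 7 below. In all 3 pairs, 3 (27.3%) were lower in KO (*Fkbp11*, *Creld2* and *Mzb1*, at −1.13, −0.41 and −0.33) and 0 were higher. Of all genes tested, 13.1% were lower and 11.7% higher in all 3 pairs. *Xbp1*, the most abundant gene of the list, was at 0.19, with pair 3 below 0. For 13 genes of mature B cells the median log2 fold change was 0.12, and it was −0.03, −0.10 and 0.37 in the pairs. The part of plasma cell content in the differences of the mitosis genes was not tested.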

How the data were processed

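RNA was ribodepleted and sequenced from strand-specific libraries of 3 *Tent5c* KO and 3 WT B cell cultures. The authors aligned reads with STAR 2.6.1a to GRCm38, counted fragments on exons by strand with featureCounts (Subread 1.6.3), leaving out multi-mapping fragments, and then scaled each library by its DESeq2 size factor. What was deposited is thus a signal, the normalized count, in which a shift common to most transcripts is not visible. Per the labels, ERCC spike-in RNA was added, and it was not used here.

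All values above 0 were whole multiples of 1 step per library to within 0.01 (100.0% in each library), which gave back whole fragments. Genes whose mean reached 10 normalized counts were tested, two-sided, with limma 3.58.1 (R 4.3.3) on log2(normalized count + 1), trend and pair block included, and *p*-values were adjusted by Benjamini-Hochberg (threshold 0.05). A fold change on this scale understates that of low genes. The fragments were also tested with edgeR 4.0.16 and with DESeq2 1.42.0, and the pseudocount (0.5, 5), filter (none, 50), scaling (TMM, total fragments, quantile), block and each pair were changed or left out. The limma, edgeR and DESeq2 steps were tested on simulated data. Each interval is for the mean KO minus WT difference, given the spread left after the pair block. The ratio of a single pair can lie outside it.

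Littermates pair the samples, and the deviations of a pair's libraries from their group means correlated at 0.328, 0.685 and 0.170 over genes. Neither library of pair 3 correlated best with its own littermate. KO of pair 3 correlated more with WT of pair 1 (0.282), and WT of pair 3 more with KO of pair 1 (0.260). No libraries were duplicates, with a chi-square per gene of 4.82 to 24.3 between libraries. Between the libraries of pairs 1, 2 and 3 it was 6.20, 4.82 and 17.8. Symbols, exons and positions came from Gencode vM21 on GRCm38 (54409 of 54446 identifiers matched), a later release than the one the authors counted with, and promoters from RefSeq on GRCm38.p6.

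The mitosis genes, other lists and tests were chosen with earlier results of these data known. All 33 mitosis genes are named. From each other list at most 4 genes are named, those with the lowest unadjusted *p*-value among genes of the same sign in all 3 pairs, or else the most abundant, and any gene of the G1, inhibitor and exit lists may be named. The zero markers of other cell types were named after their values were seen. The list of 6 NK cell genes had 2 above the filter, *Prf1* (4.82 to 15.1 normalized counts) and *Gzma* (1.05 to 52.7), the T cell list 1 and the myeloid list 2.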

Additional observations from a re-analysis of the deposited data

How the results depend on the processing

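In 14 alternatives, 0 mitosis genes passed the adjusted threshold, the smallest adjusted *p*-value being 0.44, and of the single-gene values 351 kept their sign and 12 did not, or 82 and 17 with a pair left out. DESeq2 with the block called 22 genes lower and 1 higher. The mitosis genes higher at an unadjusted *p*-value under 0.05 (2) numbered 1 with no replicate block in limma and in edgeR and 0 in DESeq2. The replicate block changed no other call. Total-fragment scaling moved the median of the mitosis genes from 0.047 to 0.081 and the number lower in all pairs from 1 to 0, and moved the median of all genes by 0.034. Signs turned for *Plk1*, at 0.0080 in edgeR with no block, 0.00011 in DESeq2, 0.0097 with TMM, 0.033 with total-fragment and 0.016 with quantile scaling, and for *Anln*, at 6.58e-05 with TMM, 0.024 with total-fragment and 0.0057 with quantile scaling. Total-fragment scaling also turned *Aurkb* (0.0077), *Ttk* (0.0078), *Nusap1* (0.020) and *Prc1* (0.0014). The cause was not tested. With 1 pair left out, 0 to 168 genes were lower and 0 to 3 higher past the adjusted threshold (168 and 3 without pair 1). In the same fits, 1 to 4 mitosis genes were higher at an unadjusted *p*-value under 0.05. In all remaining pairs, 15 to 19 mitosis genes were higher and 3 to 5 lower, and their median ranged from 0.059 to 0.091. Signs turned in 13 genes, with ranges of −0.039 to 0.16 for *Cdk1*, −0.017 to 0.099 for *Ccna2*, −0.034 to 0.029 for *Plk1*, −0.071 to 0.019 for *Aurkb*, −0.15 to 0.057 for *Ttk*, −0.015 to 0.097 for *Cenpa*, −0.094 to 0.049 for *Nusap1*, −0.072 to 0.054 for *Anln*, −0.00015 to 0.068 for *Bub1*, −0.019 to 0.068 for *Bub1b*, −0.26 to 0.056 for *Ube2c*, −0.087 to 0.13 for *Nuf2* and −0.097 to 0.037 for *Prc1*. The lowest count of a mitosis gene in a library was 84 fragments.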
